A study of Mus musculus with 22 samples.

Results

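The HoxB genes were followed across arterial smooth muscle cells of 7 mouse tissues. The members were all rows of the deposited table whose gene symbol was Hoxb1, Hoxb2, Hoxb3, Hoxb4, Hoxb5, Hoxb6, Hoxb7, Hoxb8, Hoxb9 or Hoxb13, which gave 10 genes of 28099. RNA was measured in 22 libraries of sorted cells, 3 each from heart, lung, aorta, stomach, kidney and bladder and 4 from intestine. All mice carried a Dre recombinase driven by Cspg4 (NG2, a mural cell proteoglycan), the tamoxifen-inducible recombinase Acta2-CreERT (driven by the smooth muscle actin gene) and the R26-GFP reporter, and tamoxifen was given to all on 3 days, at 0.75 mg for each 10 g of body weight. The labels give Cspg4-Dre for 6 tissues and the inducible Cspg4-DreERT for heart, so heart and its genotype cannot be told apart. The labels name no age, no sex and no sharing of animals between libraries, and there was no untreated group, so p-values here measure the spread between these libraries only. The deposited value is a signal, a whole number already scaled per library.

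Hox genes encode homeodomain transcription factors that give cells their position along the head-to-tail axis of the embryo. They lie in clusters in which gene order follows position: genes at the 3′ end, with low numbers, are switched on early and reach far towards the head, while genes at the 5′ end, with high numbers, act towards the tail. Adult mesenchymal cells, vascular smooth muscle among them, often keep a Hox pattern that reflects where they arose. Genes with the same number in the HoxA, HoxB, HoxC and HoxD clusters are paralogues, copies of an ancestral gene.

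In the mm39 coordinates of the deposited table the members lay on the plus strand of chromosome 11. Hoxb13 came first at 96085142 to 96088273, and Hoxb1 last at 96256578 to 96259082. Counted from the start of Hoxb1, the starts of Hoxb2, Hoxb3, Hoxb4, Hoxb5, Hoxb6, Hoxb7, Hoxb8 and Hoxb9 lay 15.2, 42.4, 47.5, 62.4, 73.3, 79.1, 83.8 and 94.3 kb away, and that of Hoxb13 lay 171.4 kb away. Antisense RNAs share exonic sequence with 3 members in GENCODE M21: Hoxb3os with 2250 bases of Hoxb3 (52.9% of its exonic length) and 953 bases of Hoxb2 (27.3%), and Hoxb5os with 100 bases of Hoxb5 (3.59%). SMART-Seq v4 does not mark strand, so in those stretches the reads of a gene and its antisense partner cannot be told apart.

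RefSeq's promoter table (GRCm38.p6) held 3 of the 10 members, and their starts are shown because they stand for 3 levels of expression in these cells: Hoxb4, above 0 in 20 of 22 libraries, Hoxb8, above 0 in 11, and Hoxb1, above 0 in 5. Each run is upstream sequence on the plus strand of chromosome 11, ending before the first annotated exon, and capitals mark the motifs listed after it. Hoxb4 covers chr11:96318017-96318266, Hoxb8 chr11:96281655-96281904 and Hoxb1 chr11:96365508-96365751.
Hoxb4: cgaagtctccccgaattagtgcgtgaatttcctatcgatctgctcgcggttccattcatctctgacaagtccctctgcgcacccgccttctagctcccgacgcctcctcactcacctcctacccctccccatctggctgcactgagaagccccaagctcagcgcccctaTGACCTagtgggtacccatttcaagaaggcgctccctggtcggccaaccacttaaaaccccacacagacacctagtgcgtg
Hoxb8: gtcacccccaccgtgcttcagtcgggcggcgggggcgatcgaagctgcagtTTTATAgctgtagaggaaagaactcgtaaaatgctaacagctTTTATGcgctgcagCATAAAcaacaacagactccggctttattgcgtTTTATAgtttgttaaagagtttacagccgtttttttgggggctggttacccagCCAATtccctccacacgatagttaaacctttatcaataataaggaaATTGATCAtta
Hoxb1: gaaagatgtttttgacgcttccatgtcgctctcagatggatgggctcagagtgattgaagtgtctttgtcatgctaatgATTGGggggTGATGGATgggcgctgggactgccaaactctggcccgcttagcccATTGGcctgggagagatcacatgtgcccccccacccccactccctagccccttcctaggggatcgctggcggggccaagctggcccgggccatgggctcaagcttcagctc

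Both strands were searched for AGGTCA (the half-site of retinoic acid receptors), TGATNNAT (a Hox-Pbx site), TGACAG (a Meis site), TTTATG (a Cdx site), TATAAA (the TATA box) and CCAAT (the CCAAT box). These letters occur in the 250 bases before the start of 14.0%, 7.7%, 15.9%, 10.8%, 12.4% and 33.8% of 32851 promoters, in that order. The Hoxb4 window held 1 AGGTCA match, on the minus strand 81 bases before the start, and none of the others. The Hoxb8 window held 2 TATAAA matches, 2 TTTATG matches, 1 CCAAT match and 1 TGATNNAT match. The Hoxb1 window held 2 CCAAT matches and 1 TGATNNAT match. The share of G and C was 58.0% for Hoxb4, 44.4% for Hoxb8 and 59.4% for Hoxb1, against a median of 52.4%. A match describes the letters and is not a measured binding site.

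Rebuilt read depth was 629456, 1540366 and 1927765 in aorta 1, 2 and 3 and 817157 in heart 3, against 4389363 to 12708448 in the other 18 libraries. A count of 3 reads is worth a signal of 28.3, 12.2 and 9.9 in aorta 1, 2 and 3 and 24.3 in heart 3, but 1.3 to 4.0 elsewhere, so a 0 in the shallow libraries allows a signal up to these values (counting error only). Acta2 was read in every library. Cspg4 ranged from 15 in bladder 3 and 65 in kidney 2 to 2542 in kidney 3. Markers of other cells were read in every tissue. In sorted bulk cells, fewer cells of a type and less RNA per cell cannot be told apart.

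Among the genes at the 3′ end, Hoxb2 was read in every tissue, Hoxb4 was high in lung and intestine, Hoxb3 was low throughout, and Hoxb1 was near 0. Hoxb1, which patterns the hindbrain in the embryo, was listed at 0 in every heart, stomach, intestine and bladder library. It reached 1, 0 and 2 in lung 1, 2 and 3 and 3, 1 and 0 in kidney 1, 2 and 3. Aorta 1 alone had a signal of 132, which is 14 rebuilt reads, while aorta 2 and 3 were at 0.

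Hoxb2, also a hindbrain and neural crest patterning gene, had a signal of 177, 130 and 128 in lung, 104, 89 and 99 in aorta and 119, 71 and 99 in kidney. It was 69, 95, 73 and 94 in intestine, 77, 70 and 24 in heart and 48, 32 and 48 in stomach. In bladder it was 2, 0 and 8, below every library of the other tissues. Neighbouring tissues in the order of levels, from lung through aorta, kidney, intestine and heart to stomach, did not differ at an adjusted p under 0.05, but stomach lay above bladder by 3.84 on the log2 scale (adjusted p = 0.000309).

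Hoxb3, which shares 52.9% of its exonic length with Hoxb3os, had a signal of 16, 19 and 35 in lung, 19, 16, 17 and 31 in intestine, 17, 9 and 12 in kidney, 8, 7 and 24 in heart and 9, 5 and 11 in stomach. In aorta, where 3 reads are worth 28.3, 12.2 and 9.9, it was 0, 24 and 3, and in bladder 1, 0 and 0. No pair of neighbours in its order of levels was told apart.

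Hoxb4, known for promoting self-renewal of blood stem cells, had a signal of 167, 121 and 144 in lung and 98, 108, 90 and 162 in intestine. It was 83, 78 and 71 in kidney, 47, 45 and 50 in aorta and 51, 37 and 53 in stomach. Heart had 23, 15 and 0, and bladder 3, 0 and 1. Stomach lay above heart by 2.71 on the log2 scale (adjusted p = 0.0254), and the heart and bladder levels were not told apart (1.86, adjusted p = 0.167).

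The 3 middle genes, Hoxb5, Hoxb6 and Hoxb7, were high in lung and at or near 0 in heart and bladder. Hoxb5, which takes part in lung branching and in the development of the enteric nervous system, had a signal of 611, 663 and 604 in lung (626 ± 32.2, SD, n = 3). It was 405, 53 and 211 in aorta, 158, 201, 182 and 215 in intestine, 83, 77 and 108 in stomach and 76, 88 and 102 in kidney. Heart had 4, 0 and 0 and bladder 2, 0 and 0, so neither group overlapped the other tissues. Kidney lay above heart by 5.70 (log2, adjusted p = 1.65e-05), and heart and bladder were not told apart (0.25, adjusted p = 0.891).

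Hoxb6, a neighbour expressed in lateral mesoderm of the embryo, had a signal of 465, 378 and 331 in lung and 149, 166 and 177 in kidney. It was 72, 95, 93 and 85 in intestine and 61, 46 and 92 in stomach. In aorta it was 0, 101 and 185, where the 0 belongs to the shallowest library. Bladder had 3, 19 and 0. Heart was at 0 in all 3 libraries. Against the floor of 3 reads over that group the lung mean was at least 334-fold and the kidney mean at least 140-fold higher. Such a bound covers the heart side only and leaves out the spread of the other tissue.

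Hoxb7, a gene with a promoter long used to mark the ureteric bud and collecting duct in mouse lines, had a signal of 433, 223 and 119 in aorta, 150, 362 and 171 in kidney and 248, 205 and 194 in lung. These 3 tissues overlapped. It was 67, 95, 76 and 87 in intestine and 51, 46 and 65 in stomach, both below every aorta, kidney and lung library. Bladder had 9, 20 and 4, and heart 0 in all 3 libraries. The mean of aorta was at least 221-fold, that of kidney at least 195-fold and that of lung at least 184-fold above the heart floor. The bladder mean, 11.0 with an SD of 8.2, was at least 9.4-fold above it. These bounds too leave out the spread between the libraries of the higher tissue. Hoxb7 was the member with the most tissue pairs called, 15 of 21.

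At the 5′ end only Hoxb9 reached a sizeable level, and in kidney alone did all 3 of its libraries lie above a signal of 10. Hoxb9, which shapes the thoracic skeleton, had a signal of 21, 116 and 122 in kidney. It was 4, 2, 3 and 6 in intestine, 3, 1 and 7 in stomach, 9, 0 and 0 in aorta, 0, 8 and 0 in bladder, 0, 0 and 1 in lung and 0 in every heart library. The value of 9 in aorta 1 is 1 rebuilt read. The kidney mean was at least 73.8-fold above the heart floor. Kidney lay above intestine, the next tissue, by 3.91 on the log2 scale. Hoxb9 reached a signal of 10 in kidney only, so no test is given for that difference.

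Hoxb8, known from microglia and sensory circuits, was between 0 and 20 in all libraries and above 0 in 11 of 22. Its highest values were 20 in aorta 2 (5 rebuilt reads) and 11 in kidney 2. Hoxb13, a marker of the prostate and the tail end of the body, was above 0 in 6 libraries, with 20 in bladder 1 (26 rebuilt reads) and at most 4 elsewhere. Bladder 2 and 3 had 0 and 1. Per kb of exon the mean of Hoxb8 was at most 2.5 ± 4.4 (SD, n = 3), in aorta, where that of its neighbour Hoxb7 was 167 ± 104. The strip plot shows all 10 genes by library.

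**Figure D1:**
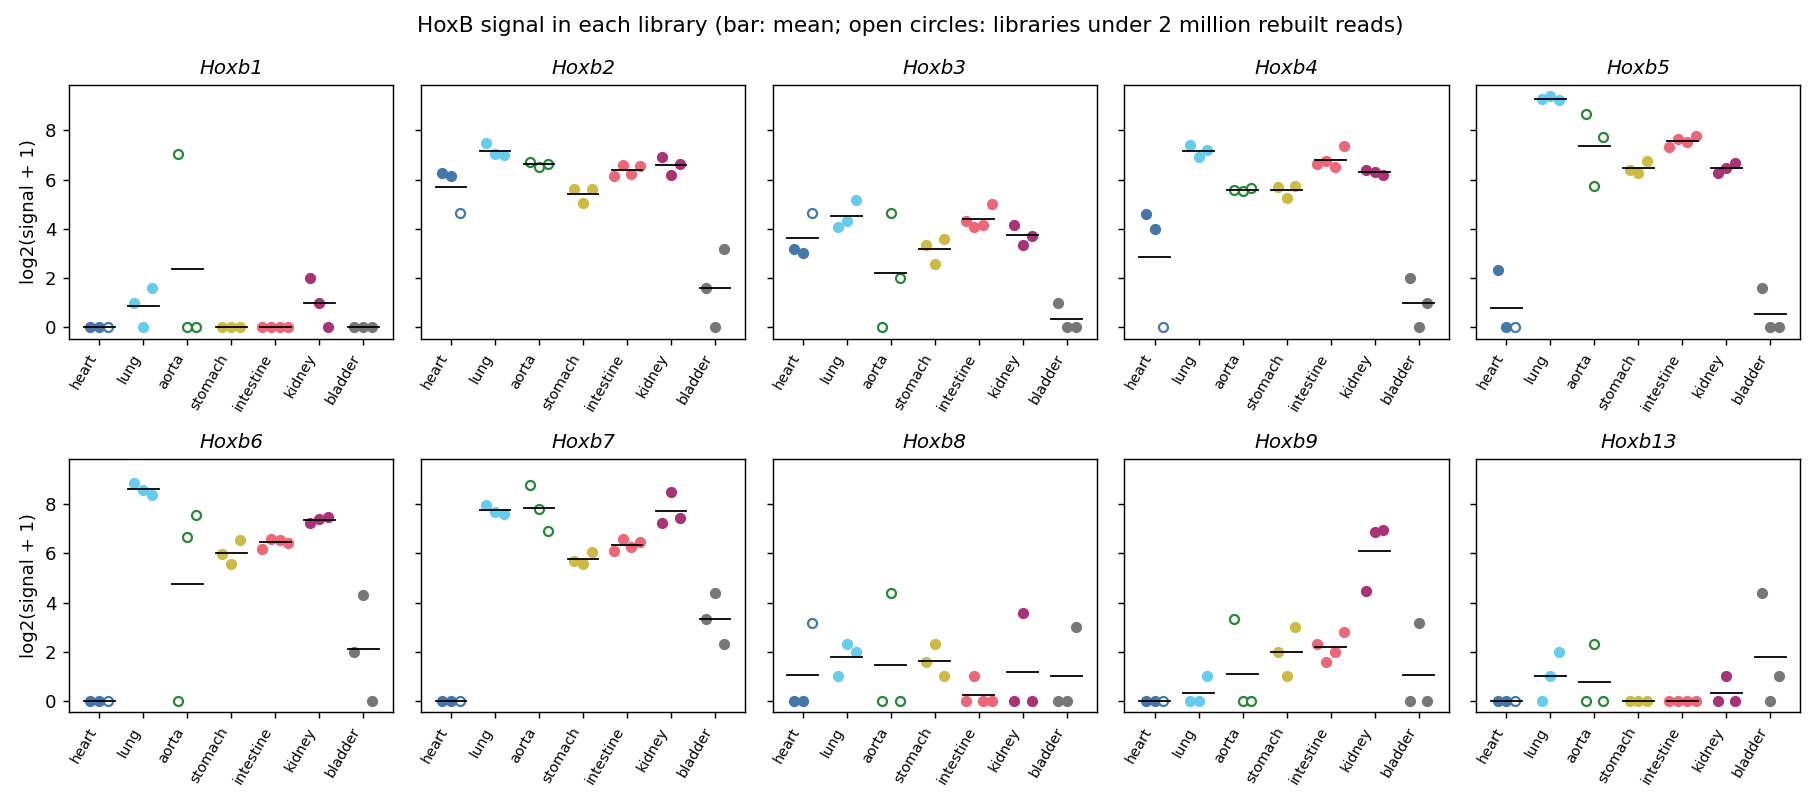
Signal of the 10 HoxB genes in each of the 22 libraries, as log2(signal + 1), by tissue, with the mean of these log values as a bar and open circles for aorta 1 to 3 and heart 3. Hoxb6 and Hoxb7 sit at 0 in every heart library, Hoxb5 sits at the top in lung (604 to 663 as signal), and Hoxb9 is high in kidney only (21 to 122).

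Per kb of exon the profile along the cluster differed in its peak. In lung the levels were 225 ± 11.6 signal per kb (SD, n = 3) for Hoxb5, 199 ± 34.6 for Hoxb6, 139.7 ± 18.5 for Hoxb7 and 56.1 ± 9.0 for Hoxb4. In kidney the highest level per kb was that of Hoxb7, 147.5 ± 75.7, followed by Hoxb6 at 83.5 ± 7.2, Hoxb9 at 33.5 ± 22.0, Hoxb5 at 31.8 ± 4.7 and Hoxb4 at 30.1 ± 2.3. In aorta Hoxb7 also led, at 167 ± 104, with Hoxb5 at 80.0 ± 63.3. Intestine was led by Hoxb5 at 67.8 ± 8.9 per kb, and in stomach Hoxb7, Hoxb6 and Hoxb5 lay within their spread of each other at 35.0 ± 6.4, 33.8 ± 11.9 and 32.1 ± 5.9. These orders within a tissue are descriptions, with no test. The summed signal of the 10 genes was 1445 to 1686 in lung, 618 to 903 in kidney, 559 to 1130 in aorta, 487 to 680 in intestine and 248 to 385 in stomach. It was 56 to 112 in heart and 21 to 47 in bladder, so these 2 groups lay apart from the other 5 and from each other.

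**Figure D2:**
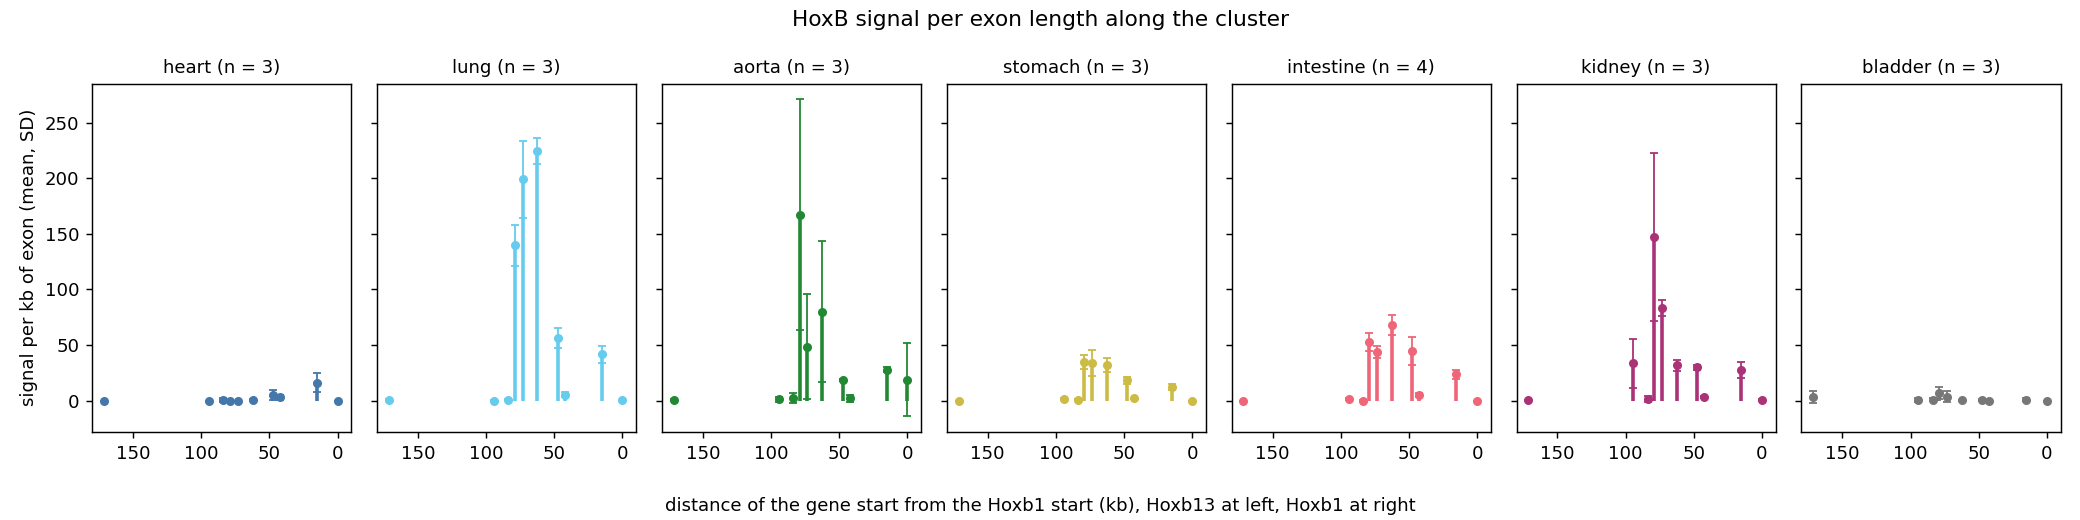
Mean signal per kb of exon with SD for each HoxB gene, placed by the distance of its start from the Hoxb1 start in kb, 1 panel per tissue. Lung peaks at Hoxb5 (225 per kb), aorta and kidney at Hoxb7 (167 and 147.5 per kb), and heart and bladder stay near 0 except Hoxb2 in heart.

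To test the tissues, each was compared with the mean of the other 6 by limma on log2(signal + 1) over the 16917 genes that reached a signal of 10 in 3 or more libraries. Of the 10 members 7 passed that filter. Hoxb1, Hoxb8 and Hoxb13 did not, and Hoxb9 passed only through its 3 kidney libraries, so its difference there is partly built into the filter. All 7 differed across the tissues (F test, adjusted p from 1.05e-08 for Hoxb7 to 0.00336 for Hoxb3), where 59.6% of all genes tested did. The comparisons with the mean of the others share libraries, so they are not independent of each other.

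In lung 5 of 7 were higher, against 4.43% of all genes, and none was lower, against 3.48%. The log2 fold changes were 4.42 ± 0.55 (SE) for Hoxb5 (adjusted p = 4.44e-05), 4.16 for Hoxb6, 2.58 for Hoxb7, 2.48 for Hoxb4 and 1.80 for Hoxb2. Hoxb3 (1.62 ± 0.65, adjusted p = 0.136) and Hoxb9 (-1.74 ± 0.71, adjusted p = 0.145) did not pass. Leaving out any 1 lung library ended the calls of Hoxb2, Hoxb4 and Hoxb6 (adjusted p of 0.0657 to 0.184), so that Hoxb5 and Hoxb7 held in every such fit. Lung epithelium markers were also highest in lung: their summed signal was 4144 to 5022 there and 3 to 1227 elsewhere, and 6 of 7 were called higher. In lung 1, 2 and 3 that sum was 4144, 4955 and 5022, and the summed HoxB signal was 1686, 1521 and 1445. The part of these cells in the HoxB values was not tested.

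In kidney 2 of 7 were called higher, against 6.35% of all genes. Hoxb7 was higher by 2.55 ± 0.45 (log2, SE; adjusted p = 0.000748). Hoxb9 was higher by 4.98 ± 0.71, but it passed the filter only through its kidney libraries. Its place in the count is thus partly built in, and no p-value is given for it. Hoxb9 kept a log2 fold change of 4.55 to 5.79 without any 1 kidney library. Gm53, a noncoding RNA that starts upstream of Hoxb9 on the same strand, had a signal of 16, 64 and 34 in kidney and at most 4 elsewhere. It too passed the filter only through its kidney libraries, so no test is given. Without aorta and heart 3, Hoxb4, Hoxb5 and Hoxb6 were also higher in kidney (1.32, 1.47 and 2.73, adjusted p of 0.0149, 0.016 and 0.00165).

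Markers of kidney epithelium were also read in the kidney libraries. The summed signal of 9 collecting duct and ureteric bud markers was 554, 2527 and 2620 in kidney 1, 2 and 3 and 0 to 669 elsewhere, with 7 of 8 tested called higher. The nephron markers summed to 4891, 6644 and 14794 in kidney and 75 to 677 elsewhere. Hoxb9 was 21, 116 and 122 and Hoxb7 150, 362 and 171 in kidney 1, 2 and 3. The Hoxb9 paralogue Hoxa9 was 532, 575 and 463 in the same libraries. The part of these cells in the Hoxb9 and Hoxb7 values was not tested.

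In aorta Hoxb7 (2.67 ± 0.45, adjusted p = 0.000131) and Hoxb5 (2.20 ± 0.55, adjusted p = 0.00326) were higher, 2 of 7 against 9.15% of all genes, and none was lower, against 42.8%. The median of all genes stood at -1.04 there, and all 3 libraries are shallow. With libraries weighted by their quality both calls ended (adjusted p = 0.255 for Hoxb5 and 0.0614 for Hoxb7). Hoxb6 in aorta changed sign with 1 library, from -0.35 with all to 2.02 without aorta 1 (adjusted p = 0.0235). Endothelial markers were lower in aorta for 8 of 10 genes and summed to 966 to 2750, against 1653 to 11427 elsewhere. Skeletal muscle markers summed to 489, 978 and 20687 in aorta 1, 2 and 3 and to 35 to 1972 elsewhere, with 2 of 5 tested called higher. Lung epithelium markers summed to 75, 1227 and 3 in the same libraries. The part of these cells in the aorta values was not tested.

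In intestine Hoxb5 (2.40 ± 0.49, adjusted p = 0.00122) and Hoxb4 (2.07 ± 0.58, adjusted p = 0.0126) were higher, 2 of 7 against 15.5% of all genes. The Hoxb4 call ended with the replicate number as a block (adjusted p = 0.0592) and without intestine 4 (adjusted p = 0.0572). Without aorta and heart 3 the count was 5 of 7, with Hoxb3, Hoxb6 and Hoxb7 added. In stomach no member passed, against 20.4% of all genes called in either direction, and the values ran from -0.24 for Hoxb2 to 1.15 for Hoxb5. Without aorta and heart 3 Hoxb5 alone was called in stomach (1.48, adjusted p = 0.0103). Epithelial markers of stomach and intestine summed to 11659 to 14661 in stomach and 2695 to 4387 in intestine, and their part was not tested.

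In heart 5 of 7 were lower, against 12.4% of all genes, and none was higher, against 6.03%. Hoxb7 fell by 6.46 (log2, SE 0.45, adjusted p = 4.02e-08), and the changes were -5.88 for Hoxb6, -5.51 for Hoxb5, -2.54 for Hoxb4 and -2.13 for Hoxb9. Hoxb9 passed the filter only through its kidney libraries, which lie in the mean of the others. Its place among the 5 is thus partly built in. Hoxb2 and Hoxb3, nearer the 3′ end, had differences of 0.07 ± 0.50 (adjusted p = 0.94) and 0.54 ± 0.65 (adjusted p = 0.6). The Hoxb4 call ended without heart 3 (-1.11, adjusted p = 0.147), and the Hoxb9 call ended without any 1 heart library (adjusted p of 0.0889 to 0.156) or with no filter on low values (0.0707). Fitted changes of Hoxb6, Hoxb7 and Hoxb9 depend on the value of 1 added before taking logs, since heart was at 0. Cardiomyocyte markers summed to 2632 to 3917 in heart, 3001 to 3231 in lung and 93 to 2510 in the other tissues. Of the 7, 4 were called higher in heart (Myl2, Tnnt2, Tnni3 and Myh6) and 2 in lung (Actc1 and Tnnt2). Endothelial markers were higher in heart for 6 of 10 genes and lower for 1, and summed to 5671 to 7702, against 966 to 11427 elsewhere. The part of these cells in the heart values was not tested.

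In bladder 6 of 7 were lower, against 7.4% of all genes: Hoxb5 by -5.80, Hoxb2 by -4.72, Hoxb4 by -4.72, Hoxb6 by -3.42, Hoxb3 by -3.27 and Hoxb7 by -2.56 (log2, adjusted p from 1.12e-06 for Hoxb5 to 0.0259 for Hoxb6). Hoxb9 had -0.90 ± 0.71 (adjusted p = 0.475). The Hoxb6 call ended without bladder 1 (adjusted p = 0.0846) or bladder 3 (0.239). With edgeR on rebuilt reads neither Hoxb6 nor Hoxb7 was called in bladder (adjusted p = 1.0 each) against a mean that holds heart, where both are at 0. With heart left out edgeR called both lower (-4.11 and -3.64). Fibroblast markers were higher in bladder for 6 of 8 genes and summed to 25095 to 37765, against 5722 to 38238 elsewhere. Immune markers summed to 1458 to 2925, against 8 to 1615. Mesothelium markers were higher for 5 of 5 genes and summed to 482, 797 and 2169 in bladder 1, 2 and 3, against 0 to 1798 elsewhere. Urothelium markers were higher for 3 of 5 tested and summed to 244, 333 and 4872, against 0 to 487 elsewhere. Arterial smooth muscle markers summed to 10375 to 23552, with Lmod1, Myh11, Tagln and Mylk lower. The part of these cells in the low HoxB values was not tested.

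Heart and bladder, the tissues with the lowest summed HoxB signal, differed directly in 3 of 7 members, against 14% of all genes. Hoxb2 was higher in heart by 4.11 (log2, adjusted p = 0.000268) and Hoxb3 by 3.27 (adjusted p = 0.0134), while Hoxb7 was higher in bladder by 3.35 (adjusted p = 0.000648). Kidney differed from bladder in 7 of 7, all higher in kidney, against 7.66% of all genes. Hoxb9, 1 of the 7, passed the filter only through its kidney libraries. No member passed between stomach and intestine, where 6.12% of genes did, or between lung and intestine, where 21.9% did. The largest log2 differences were 1.25 for Hoxb4, higher in intestine than stomach (limma, adjusted p = 0.645), and 2.16 for Hoxb6, higher in lung than intestine (limma, adjusted p = 0.23). The spread in these tests is shared over all 22 libraries, the shallow ones among them, so a missed threshold does not mean equal levels. Over the 21 pairs 64 of 147 member tests passed, against 20.9% of all gene tests, and 59 to 70 did when 1 library was left out. The 64 hold 6 pairs of Hoxb9, each with kidney, which are partly built into the filter.

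**Figure D3:**
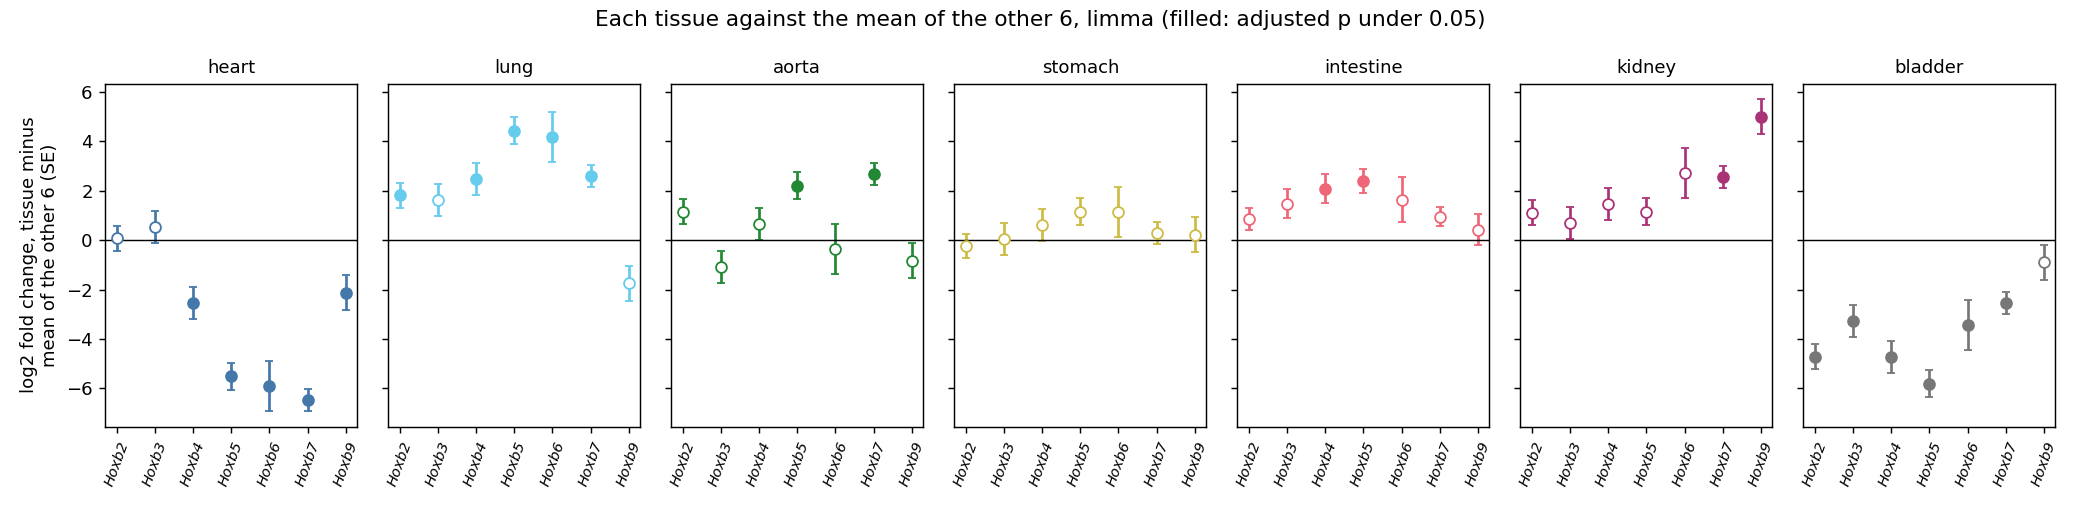
Log2 fold change of each tested HoxB gene in a tissue against the mean of the other 6, with its standard error, 1 panel per tissue, filled where the adjusted p was under 0.05. Heart and bladder lie below 0 for Hoxb5 (-5.51 and -5.80), lung lies above 0 for Hoxb5 (4.42), and Hoxb2 in heart lies at 0.07.

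The antisense RNAs of the cluster were highest in lung and at or near 0 in bladder. Hoxb5os was 138, 127 and 130 in lung and 31, 73 and 67 in kidney, was listed at 0 in heart and reached at most 2 in bladder. It was called higher in lung (3.75 ± 0.51, adjusted p = 9.67e-05), kidney and intestine and lower in heart (-4.47) and bladder (-3.86). Hoxb3os was 69, 70 and 63 in lung, 64, 30 and 8 in heart and 1, 1 and 0 in bladder. It was higher in lung (1.99) and aorta (1.43), lower in bladder (-4.35) and not called in heart (0.38 ± 0.51, adjusted p = 0.647). Over the 22 libraries Pearson's r of log2(signal + 1) was 0.93 for Hoxb5 with Hoxb5os, 0.90 for Hoxb2 with Hoxb3os and 0.91 for Hoxb4 with Hoxb5, and 0.09 for Hoxb2 with Hoxb9. These r are descriptions over libraries that share tissues, and the antisense pairs share sequence in unstranded libraries.

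The genes outside the member list that followed each member most closely over the 22 libraries were taken by the same r. For Hoxb5 they were Hoxa2 (0.94), Hoxb5os (0.93) and Nav2 (0.92), and for Hoxb6 Hoxb5os (0.90), Ccdc159 (0.88) and Shd (0.86). Hoxb7 was followed by Hoxb5os (0.87), Pex11a (0.83) and Tes (0.83). Hoxb2 was followed by Hoxb3os (0.90), Trmt12 (0.90) and Abtb1 (0.86), Hoxb3 by Apobec1 (0.88), Tmem35a (0.82) and Ttll7 (0.81), and Hoxb4 by Btc (0.93), Abhd11os (0.89) and Hoxaas2 (0.87). For Hoxb9 they were Pck1, Bsnd and Hoxd4, each with 0.86. Pck1, a gluconeogenic enzyme of the proximal tubule, and Bsnd, a chloride channel subunit of the distal nephron and collecting duct, had means of 230.3 and 109.7 in kidney and were at 0 in heart.

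Paralogues in the other clusters did not all share these patterns. In heart 16 of 18 tested paralogues were lower, against 12.4% of all genes, with a median log2 change of -3.28 against -0.19 for all genes. In bladder 6 were higher, against 8.31% of all genes, and 5 lower, against 7.4%. Hoxa13 was 493, 628 and 323 there, Hoxa9 was 119, 89 and 343 and Hoxd13 was 57, 75 and 85, while Hoxb13 was 20, 0 and 1 and Hoxb9 0, 8 and 0. In kidney 7 of 18 were higher, against 6.35% of all genes, led by Hoxa9, Hoxc9 and Hoxd9. Hoxa13 and Hoxd13 passed the filter only through bladder, and Hoxd4 only through kidney. Their places in these counts for heart, bladder and kidney are thus partly built into the filter. In lung Hoxc6 was 0, 1 and 1 and Hoxd8 0, 1 and 1.

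The ratio of a HoxB gene to a paralogue was tested in each tissue against all other libraries, with 13 pairs and 91 exact two-sided permutation tests adjusted together, and 5 passed. The test shuffles single libraries and treats all 22 as exchangeable, although libraries of 1 tissue are alike. Its p-values therefore do not measure the spread between tissues. In lung Hoxb6 stood above Hoxc6 by 8.58 more on the log2 scale than in the other libraries, and Hoxb5 above Hoxc5 by 6.61 more (exact permutation, adjusted p = 0.0197 each). In heart Hoxb2 gained 4.04 on Hoxa2 (adjusted p = 0.0197 by exact permutation), with Hoxb2 at 77, 70 and 24 and Hoxa2 at 4, 1 and 0. Also in heart, Hoxb6 lost against Hoxa6 (-5.37, adjusted p = 0.0355 by exact permutation), which was 1, 10 and 8. In bladder Hoxb9 lost against Hoxa9 (-6.20, adjusted p = 0.0296 by exact permutation). The smallest p that 3 libraries of 22 allow is 0.000649. Without aorta and heart 3, the ratios of Hoxb5 and Hoxb6 in lung and of Hoxb9 in bladder passed again. The ratios of Hoxb4 to Hoxa4 in kidney (3.03), Hoxb5 to Hoxa5 in bladder (-3.85) and Hoxb7 to Hoxa7 in bladder (-3.54) then passed too (exact permutation, adjusted p of 0.032, 0.0382 and 0.0478). The heart ratios did not pass, with 2 heart libraries left, which limits how small p can be.

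**Figure D4:**
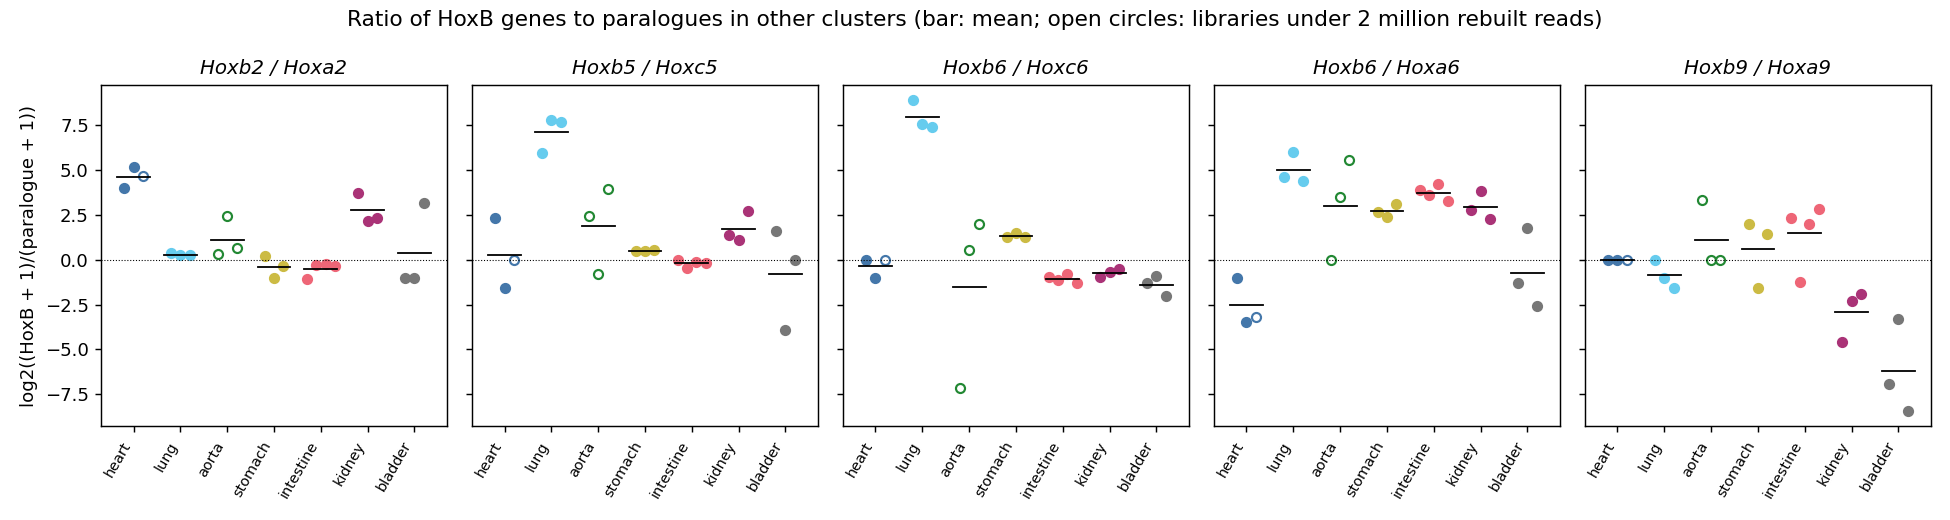
Log2 ratio of HoxB signal to paralogue signal, 1 added to each, in every library by tissue, for the 5 pairs with a tissue called; bars are means and open circles are aorta 1 to 3 and heart 3. Lung stands highest for Hoxb6 over Hoxc6 (8.58 above the other libraries), heart for Hoxb2 over Hoxa2 (4.04 above), and bladder lowest for Hoxb9 over Hoxa9 (-6.20).

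Hox proteins bind DNA together with TALE cofactors of the Pbx, Meis and Pknox families. In bladder Meis2 was higher (0.86 ± 0.26, adjusted p = 0.0274), the reverse direction of the HoxB genes there. In lung Meis3 was higher (0.72) and Meis2 lower (-1.01), and in kidney Meis2 was higher (1.37). In aorta Pbx2 (-3.99) and Meis1 (-3.66) were lower, where 42.8% of all genes were lower.

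Retinoic acid, made by Aldh1a enzymes and broken down by Cyp26 enzymes, switches on 3′ Hox genes in the embryo. Of 18 listed pathway genes 16 were tested. In heart 3 were higher (Cyp26a1, Rxrg and Dhrs3), against 6.03% of all genes. Aldh1a2 alone was lower there (-1.41 ± 0.42, adjusted p = 0.0258), against 12.4%. Cyp26a1 had a mean of 249.7 in heart and was listed at 0 in aorta, intestine and bladder. Aldh1a2 was higher in lung (1.91), stomach (1.63), intestine (3.70) and bladder (3.05). In bladder 6 of the pathway genes were higher and 1 lower, against 8.31% and 7.4% of all genes. In the shallow aorta libraries Aldh1a2 was listed at 0, and 7 of the pathway genes were lower and 2 higher, against 42.8% and 9.15% of all genes. The part of this pathway in the HoxB values was not tested.

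Polycomb complexes keep silent Hox genes repressed and Trithorax complexes keep active ones on. Of 18 Polycomb genes tested, none was called in lung or kidney in either direction, against 7.91% and 10.5% of all genes. None was lower in heart or bladder, against 12.4% and 7.4%. Of 10 Trithorax and K27 demethylase genes none was called in heart, lung, kidney or bladder. The shares of all genes called there were 18.4%, 7.91%, 10.5% and 15.7%. Both lists are short, so a count of 0 lies near these shares. In aorta 9 of the Polycomb and 5 of the Trithorax genes were lower, where 42.8% of all genes were. Among 7 upstream regulators of Hox genes, the Cdx factors were read mainly in intestine, with means of 674 for Cdx1 and 256.5 for Cdx2. Both were listed at 0 in aorta, heart and bladder. Gut epithelial markers were also read in intestine, and their part in the Cdx values was not tested. Egr2 was higher in heart (2.58) and bladder (2.69) and lower in lung (-1.27), stomach and intestine. Foxf1 was lower in heart (-1.56), aorta and kidney and higher in lung (1.86), stomach, intestine and bladder (2.73).

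Genes that flank the cluster were read at similar sums in tissues where the HoxB genes were high and low. The summed signal of 12 such genes was 3931 to 3991 in heart, 3887 to 5650 in bladder and 3787 to 3892 in lung. Of 10 tested, 3 were lower and none higher in heart, where 12.4% and 6.03% of all genes were. In bladder 2 were lower and 1 higher, against 7.4% and 8.31% of all genes, and in lung 1 was higher and none lower, against 4.43% and 3.48%. The lower genes were Skap1, B4galnt2 and Gip in heart and B4galnt2 and Gip in bladder. Gip reached a signal of 10 in intestine only, and B4galnt2 in stomach and intestine only. Their calls in heart and bladder are thus partly built into the filter. Copz2, a coat protein of transport vesicles, was higher in aorta (1.41 ± 0.17, adjusted p = 4.29e-06) and bladder (0.56).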

How the data were processed

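RNA of 22 libraries was made with SMART-Seq v4 from at most 10 ng, per the labels' protocols. The submitters' processing notes name the build mm39 and, with no role or order, DESeq2 1.36.0 and DESeq, featureCounts 2.0.4, STAR 2.7.10a, Picard 3.0.0 and Trimmomatic 0.39. The authors deposited a signal of whole numbers; the values themselves show that libraries had been scaled. What 1 read is worth was found by a likelihood search (30 of 30 simulated steps recovered within 1%, with settings changed after an earlier version failed the test), and reads were rebuilt by division. In aorta 1 and heart 3, 100.0% and 99.89% of values lay on whole reads, within rounding.

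limma-trend (limma 3.58.1, R 4.3.3) was fitted to log2(signal + 1) of the 16917 genes that reached a signal of 10 in 3 or more libraries, tested on simulated data, with Benjamini-Hochberg adjustment over all genes at 0.05. The design had been written with counts as the other case. As an alternative, edgeR 4.0.16 on rebuilt reads called 9710 genes across tissues, where limma called 10087. Exonic lengths came from GENCODE M21 (GRCm38). Members, lists and tests were chosen with earlier results of these data known. Named genes were all members, the 3 genes most like each tested member by Pearson's r (no Gm or Rik names), leading genes of each list, and paralogues. Same-numbered libraries did not deviate together (median r -0.01 over 63 pairs), so no pairing was assumed. Some results on cofactor and Polycomb genes are not reported here.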

Additional observations from a re-analysis of the deposited data

Results flagged for a closer look

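Gm53 in intestine had a signal of 1 in 1 library and 0 in the other 3, a gap as wide as the whole range of the group. That signal is 2 rebuilt reads, under the floor of 3 reads, and any group with 1 value above 0 shows such a gap.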

How the results depend on the processing

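The counts of HoxB members differing across tissues (7) and lower in bladder (6) stayed within 1.5 times under every alternative run, the lowest in bladder being 4 with edgeR on rebuilt reads, which called neither Hoxb6 (-2.37) nor Hoxb7 (-1.89). With quality weights the counts were 3 in heart, 0 in aorta, 1 in stomach, 6 in intestine and 4 in kidney. Without aorta and heart 3 they were 1 in stomach, 5 in intestine and 5 in kidney. The replicate block, the fit with the labels' replicate number, gave 1 in intestine and moved no other count by over 1.5 times. edgeR on rebuilt reads gave 3 in heart, 4 in aorta, 5 in intestine and 4 in kidney. A pseudocount of 5 gave 11 paralogue ratios in place of 5. The cause of these moves was not tested. Leaving out 1 library at a time gave 7 to 7 members across tissues, 3 to 5 in heart, 2 to 6 in lung, 2 to 4 in aorta, 0 to 0 in stomach, 1 to 4 in intestine, 2 to 3 in kidney, 5 to 6 in bladder and 59 to 70 over the tissue pairs. Hoxb6 in aorta was reversed, from -0.35 to 2.11 with edgeR and 2.02 without aorta 1 (-1.75 to 2.02 over the libraries left out). By construction, the edgeR mean of the other tissues has no finite value for genes at 0 in all of heart. With heart left out, chosen after seeing the data, edgeR called Hoxb6 (-4.11) and Hoxb7 (-3.64) lower in bladder. It then did not call Hoxb6 in aorta (0.51, adjusted p = 0.517), so the edgeR value of 2.11 there rests on the fit with heart. The counts without heart were 6, 3, 0, 3, 3 and 6 in lung, aorta, stomach, intestine, kidney and bladder. Median-of-ratios scaling moved the median of all genes in lung from 0.15 to 0.02. It added the call of Hoxb2 in aorta and ended none.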

Other observations

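Hoxb1 had 14 rebuilt reads in aorta 1 (a signal of 132) and none in aorta 2 or 3, where 3 reads are worth 12.2 and 9.9. Hoxb13 had 26 rebuilt reads in bladder 1 and 0 and 1 in bladder 2 and 3, while its paralogues Hoxa13 (493, 628 and 323) and Hoxd13 (57, 75 and 85) were read in all 3. Hoxd8 in heart was 13, 84 and 16, above 0 in all libraries of a tissue where Hoxb6, Hoxb7 and Hoxb9 were at 0.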
